A study of Homo sapiens with 6 samples.

Results

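The kynurenine pathway enzymes are 7 genes, KYNU, KMO, IDO1, TDO2, AFMID, HAAO and QPRT, taken by symbol from 19940 gene rows, and all 7 were found. The set was selected on the counts of the rescue libraries, for the rise of KYNU there. Levels are in CPM, which are counts scaled to the library total. Folds and log2 fold changes given with edgeR are on the scale of TMM (trimmed mean of M-values), unless another scaling is named. Other uses of TMM scaling are named. Among 847 genes called higher in rescue than in isotonic with a mean of at least 5 TMM-scaled CPM, KYNU ranked 1. By log2 fold change over all 18208 genes tested, KYNU ranked 58 against isotonic and 74 against hypertonic. The values of the enzymes in rescue are therefore given as a description. Counts came from total RNA of U2OS, a human osteosarcoma line, with a stable transgene for GFP fused to the decapping factor DCP1A, kept in all groups under G418. Rescue cells had 4 h in 300 mM sodium and then 4 h in 150 mM sodium, hypertonic cells had 4 h in 300 mM sodium, and isotonic cells had 4 h in 150 mM sodium, with 2 libraries each. The extra sodium came from concentrated phosphate-buffered saline, and the isotonic medium got a matched volume of the ordinary strength. Rescue cells were thus harvested 4 h after the others, and no isotonic library of that time was analysed, so effects of the return to isotonic medium and of harvest time cannot be told apart.

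The kynurenine pathway is the main route by which mammals break down tryptophan, and its last steps feed the synthesis of NAD. IDO1 and TDO2 open the ring of tryptophan in the first and rate-limiting step, AFMID releases kynurenine, KMO hydroxylates it, KYNU cleaves kynurenine and hydroxykynurenine to anthranilic acids, HAAO opens the ring of hydroxyanthranilic acid, and QPRT turns the resulting quinolinic acid into a precursor of NAD. The whole route is best known in liver, where TDO2 is the main first enzyme, and in macrophages, while IDO1 is known as a target of interferon gamma in many cell types.

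Library totals ranged from 91973726 to 105991428 counts in rescue, 101403615 to 103529255 in hypertonic and 90196278 to 105336183 in isotonic. A level of 3 counts stood at 0.0283 to 0.0333 CPM, and counting error is all that intervals below cover. The libraries labelled hypertonic and isotonic did not group by label. The SD of the log2 ratio over 17388 genes was 0.952 between the hypertonic libraries and 0.962 between the isotonic ones. It was 0.184 between hypertonic 2 and isotonic 1, 0.195 between hypertonic 1 and isotonic 2, and 0.166 between the rescue libraries. Every direction between hypertonic and isotonic below refers to the labels. The labels speak of sequencing in duplicate and not of separate cultures, so p-values measure the spread between libraries, which may be technical. Of 10 bone lineage markers, COL1A1 stood at 828 to 1175 CPM, SPARC at 687 to 745 CPM and VIM at 1520 to 1799 CPM over the 6 libraries, while COL1A2 stayed at 0.174 CPM or lower and SP7 at 0.533 CPM or lower.

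RefSeq promoter windows, from 250 bases before to 50 after the start site (GRCh38.p14), matched 6 of the 7 enzymes, all but IDO1. Those of KYNU, KMO, TDO2 and AFMID, whose levels were higher in both rescue libraries than in the 4 others, and that of HAAO, whose level was lower, are shown 5′ to 3′ to set them side by side. Capitals mark matches, on either strand, to AP-1 (TGANTCA), CRE (TGACGTCA), the core of the xenobiotic response element (GCGTG), the interferon-stimulated response element, the gamma-activated sequence (TTCNNNGAA), the core of NFAT and NFAT5 sites (TGGAAA), the TATA box (TATAAA), C/EBP (TTGCNNAA) or the E-box (CACGTG).
KYNU, chr2:142877414-142877713, plus strand: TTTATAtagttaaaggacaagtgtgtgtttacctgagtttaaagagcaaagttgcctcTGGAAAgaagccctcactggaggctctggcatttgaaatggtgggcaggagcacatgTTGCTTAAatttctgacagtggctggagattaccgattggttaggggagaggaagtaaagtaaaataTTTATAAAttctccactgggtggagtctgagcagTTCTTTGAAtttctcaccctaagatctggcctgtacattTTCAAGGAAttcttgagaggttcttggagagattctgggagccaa
KMO, chr1:241532128-241532427, plus strand: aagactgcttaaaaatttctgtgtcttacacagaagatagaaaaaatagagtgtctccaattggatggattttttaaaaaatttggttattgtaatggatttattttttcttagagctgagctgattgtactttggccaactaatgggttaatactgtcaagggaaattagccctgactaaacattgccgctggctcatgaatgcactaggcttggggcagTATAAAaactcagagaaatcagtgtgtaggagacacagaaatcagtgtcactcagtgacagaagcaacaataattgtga
TDO2, chr4:155903446-155903745, plus strand: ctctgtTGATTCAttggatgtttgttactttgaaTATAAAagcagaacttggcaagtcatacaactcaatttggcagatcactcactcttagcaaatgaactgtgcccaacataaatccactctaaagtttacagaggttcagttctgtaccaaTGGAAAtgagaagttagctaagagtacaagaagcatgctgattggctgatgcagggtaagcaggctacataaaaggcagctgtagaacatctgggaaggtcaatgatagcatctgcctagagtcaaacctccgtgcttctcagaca
AFMID, chr17:78187112-78187411, plus strand: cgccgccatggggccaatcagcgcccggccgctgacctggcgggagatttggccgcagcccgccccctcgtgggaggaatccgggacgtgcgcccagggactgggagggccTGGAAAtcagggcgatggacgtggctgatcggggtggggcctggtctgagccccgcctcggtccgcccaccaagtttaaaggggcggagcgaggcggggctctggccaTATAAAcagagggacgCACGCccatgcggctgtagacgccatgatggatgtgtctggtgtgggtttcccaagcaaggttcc
HAAO, chr2:42792534-42792833, minus strand: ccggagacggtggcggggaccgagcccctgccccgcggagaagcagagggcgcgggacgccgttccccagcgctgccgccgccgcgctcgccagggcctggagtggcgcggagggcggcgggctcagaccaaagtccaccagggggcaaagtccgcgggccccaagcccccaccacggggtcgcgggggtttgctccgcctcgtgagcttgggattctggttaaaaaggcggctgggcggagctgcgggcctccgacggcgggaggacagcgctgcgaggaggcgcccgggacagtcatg
KYNU held 2 matches to the gamma-activated sequence, at 34 bases before and 5 bases after the start site, and 7.66% of 35116 promoter windows held at least 1. It also held an NFAT core (20.8% of windows), a C/EBP match (10.5%) and 3 TATA matches, 2 of which overlap each other. A TATA match stood 29 bases before the start in KMO, and 11.5% of windows had one. TDO2 held AP-1 (7.71% of windows), NFAT and TATA matches. AFMID held an NFAT core, a TATA match 31 bases before the start and a core of the xenobiotic response element (36.5% of windows). HAAO and QPRT, both lower in rescue, held none of the motifs searched. The GC content was 42.3% in KYNU, 36.7% in KMO and 41.3% in TDO2, against 74.7% in HAAO and 67.7% in AFMID, and was 64.0% and 56.7% in the 2 windows listed for QPRT, with a median of 58.7% over all windows. A match is a run of letters and shows no binding.

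KYNU (chromosome 2 from 142877498 to 143055832, plus strand, GRCh38) was measured at 55.1 and 60.1 CPM by library total in rescue 1 and 2, at 0.237 and 0.609 CPM in hypertonic 1 and 2, and at 0.332 and 0.244 CPM in isotonic 1 and 2. These are 5839 and 5525 counts in rescue, 24 and 63 in hypertonic, and 35 and 22 in isotonic. Both rescue libraries stood far above the other 4, among which the hypertonic and isotonic values overlapped. The mean was 57.6 ± 3.52 CPM in rescue, 0.423 ± 0.263 CPM in hypertonic and 0.288 ± 0.0625 CPM in isotonic (SD, n = 2 each), which is 136-fold higher in rescue than in hypertonic and 199.9-fold higher than in isotonic. In replicate number 1 the ratio of rescue over isotonic was 166, and in number 2 it was 246. Over hypertonic it was 233 in number 1 and 98.7 in number 2. The log2 fold change of rescue over hypertonic was 6.81 in the edgeR model with all libraries, 6.33 without hypertonic 1 and 7.54 without hypertonic 2. In whole RNA, more cells that make a transcript and more transcript per cell cannot be told apart.

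IDO1 (chromosome 8 from 39902275 to 39928444, plus strand), one of the first enzymes, had 266 and 273 counts in rescue, 1 and 0 in hypertonic, and 2 and 2 in isotonic. Its level was 2.51 and 2.97 CPM in rescue, while all 4 other libraries were at 0.0222 CPM or lower, below the level of 3 counts. By summed counts the ratio of rescue over isotonic was 133, with an exact 95% interval of 51.7 to 490.2. IDO1 passed the filter on low counts through the rescue libraries alone, and each of the other 6 enzymes would have passed without them.

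TDO2 (chromosome 4 from 155854738 to 155920406, plus strand), the other first enzyme, was at 4.37 and 5.95 CPM in rescue, 0.237 and 1.97 CPM in hypertonic, and 1.46 and 0.266 CPM in isotonic. Rescue was higher than every other library, but the other 4 split by 5.49-fold within isotonic and 8.33-fold within hypertonic. Depending on the number, rescue was 2.99-fold (number 1) or 22.4-fold (number 2) higher than isotonic. In GENCODE 29 the span of TDO2 shares 11536 bases with ASIC5, an ion channel gene on the opposite strand. Counts of ASIC5 were 170 and 201 in rescue, 0 and 112 in hypertonic, and 89 and 1 in isotonic, so both rows ranked the libraries labelled hypertonic 2, isotonic 1 and rescue above the others. The RefSeq window of TDO2 lies beyond the end of ASIC5, so the shared stretch comes before that start site. No source used here names the annotation or says whether counting used strand, and without strand the reads of the shared stretch cannot be told apart.

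**Figure D1:**
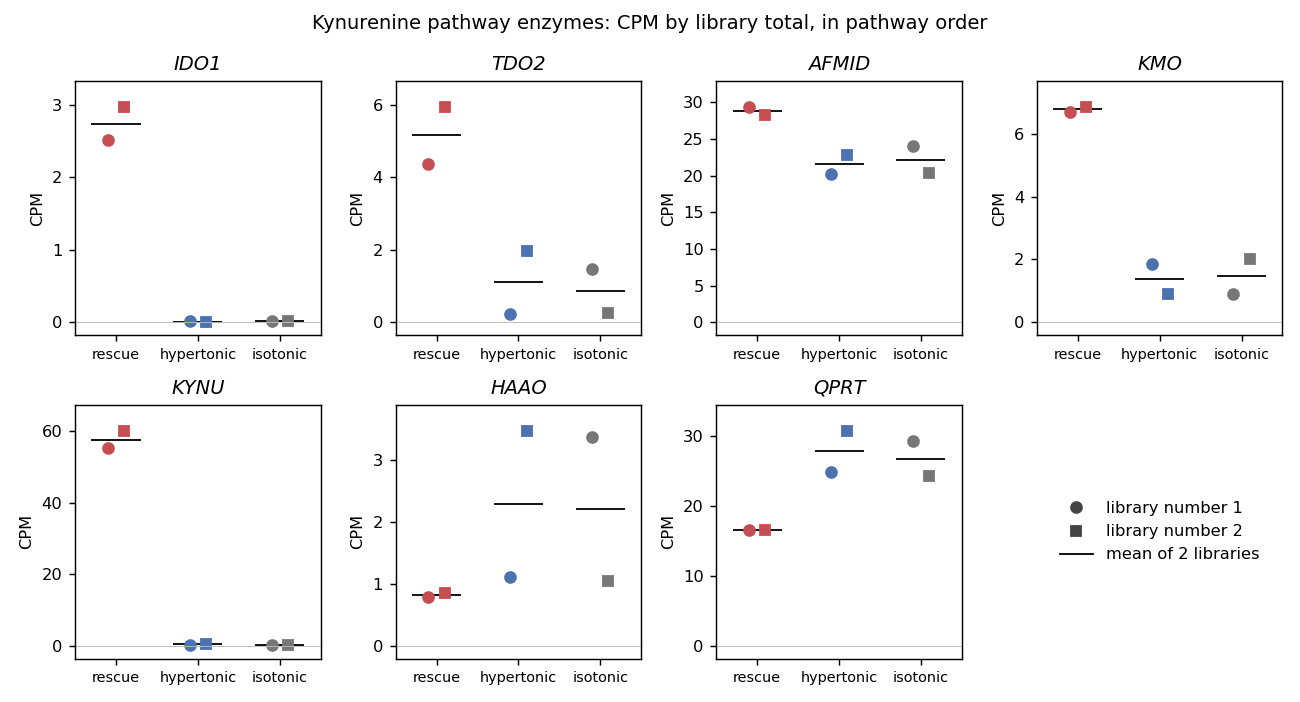
Level of each enzyme in CPM by library total (vertical axes, linear, each with its own range) in the rescue, hypertonic and isotonic libraries; circles are number 1, squares number 2 and lines the mean of 2 libraries. KYNU and IDO1 are near 0 outside rescue, AFMID changes little, HAAO and QPRT are lower in rescue, and in TDO2, KMO and HAAO the 2 libraries of the hypertonic and of the isotonic group lie apart.

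KMO (chromosome 1 from 241532134 to 241595642, plus strand), which hydroxylates kynurenine, stood at 6.70 and 6.86 CPM in rescue, 1.84 and 0.898 CPM in hypertonic, and 0.902 and 2.03 CPM in isotonic. The rescue libraries did not overlap with the others, with a mean 4.63-fold above isotonic and 4.94-fold above hypertonic. The fold depended on the library: over isotonic it was 7.43 in number 1 and 3.38 in number 2, and over hypertonic 3.63 and 7.64. Its last 5541 bases lie within OPN3, an opsin gene on the opposite strand, which ran the other way, at 100.2 and 100.4 CPM in rescue, 171 and 136 CPM in hypertonic, and 138 and 177 CPM in isotonic. In the 4 libraries outside rescue, KMO and OPN3 were both higher in hypertonic 1 and isotonic 2 than in hypertonic 2 and isotonic 1.

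AFMID (chromosome 17 from 78187317 to 78207701, plus strand), the formamidase, was measured at 29.4 and 28.2 CPM in rescue, 20.2 and 22.9 CPM in hypertonic, and 24.0 and 20.4 CPM in isotonic. Its mean in rescue was 1.30-fold that in isotonic, a log2 ratio of 0.38 by library totals. With library totals the median gene also had a log2 ratio of rescue over isotonic of 0.27, which TMM scaling (trimmed mean of M-values) brought to -0.02, and with that scaling the log2 fold change of AFMID was 0.09. On the same TMM scale KYNU remained above the other libraries, at 48.2 and 52.1 CPM in rescue, 0.268 and 0.621 CPM in hypertonic, and 0.337 and 0.275 CPM in isotonic.

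The last enzymes of the route ran the other way. QPRT (chromosome 16 from 29679008 to 29698699, plus strand) stood at 16.6 and 16.5 CPM in rescue, 24.8 and 30.7 CPM in hypertonic, and 29.2 and 24.2 CPM in isotonic. Both rescue libraries lay below the other 4, and the mean in rescue was 0.619 times that in isotonic. In GENCODE 29 the row AC009086.2, a protein-coding gene on the same strand, covers 16137 bases of QPRT. Its row had 8.88 and 9.32 CPM in rescue, 5.90 and 9.75 CPM in hypertonic, and 10.3 and 5.96 CPM in isotonic, where the groups overlapped. HAAO (chromosome 2 from 42767089 to 42792593, minus strand) had 83 and 78 counts in rescue, 112 and 359 in hypertonic, and 355 and 94 in isotonic, that is 0.783 and 0.848 CPM, 1.10 and 3.47 CPM, and 3.37 and 1.04 CPM. Its rescue libraries were the lowest, close to hypertonic 1 and isotonic 2, and far below hypertonic 2 and isotonic 1.

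**Figure D2:**
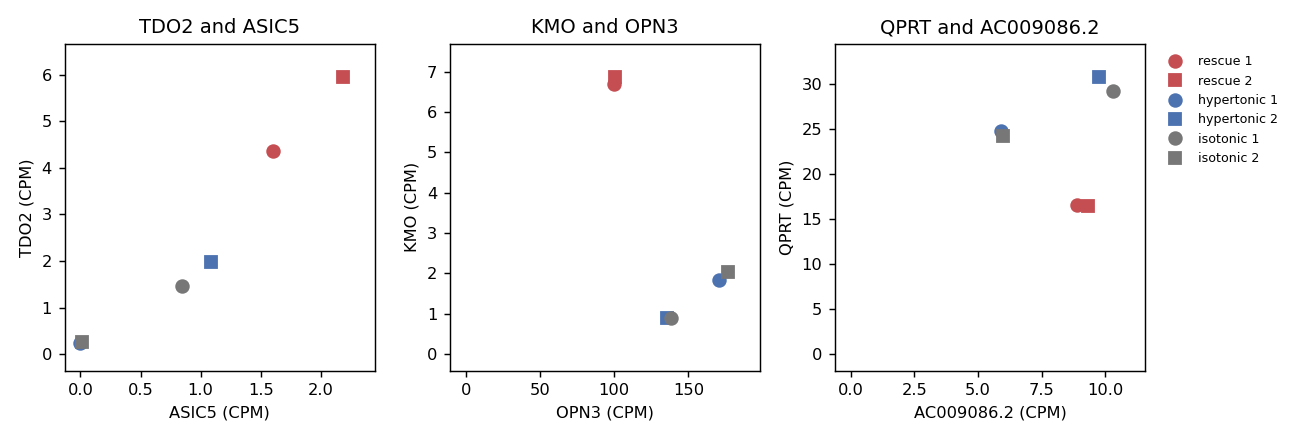
Level of TDO2, KMO and QPRT (vertical axes, CPM) against the level of a gene whose annotated span overlaps theirs (horizontal axes, CPM), 1 point per library. TDO2 and ASIC5 go up together across the 6 libraries, KMO is highest where OPN3 is lowest, and QPRT is lowest in rescue at middle levels of AC009086.2.

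The choice of the enzymes bears on how many of them were higher, lower or called in rescue, so these numbers are no result. IDO1 is among the genes tested through the rescue libraries alone. By overlap between libraries, 5 of 7 enzymes (IDO1, TDO2, AFMID, KMO and KYNU) were above all 4 other libraries in both rescue libraries. This was so for 46.9% of the 18208 genes tested. The other 2 (HAAO and QPRT) were below all 4, as were 21.8% of genes. The same counts held with TMM scaling. By mean CPM, 4 of 7 (KYNU, IDO1, TDO2 and KMO) were at least 4-fold higher in rescue than in isotonic, against 12.4% of genes, and 2 (KYNU and IDO1) at least 100-fold, against 0.604% of genes. The calls that follow are likewise counted here as no result, since the choice of the enzymes bears on them. In the edgeR quasi-likelihood test of rescue against isotonic, 3 of 7 passed, with KYNU and IDO1 higher and QPRT lower, where 23.1% of all genes passed (9.61% higher and 13.5% lower). Against hypertonic, which uses the same rescue libraries, the same 3 passed in the same directions, where 23.6% of genes did (9.86% higher and 13.8% lower). With any 1 of the 4 libraries of a comparison left out, no enzyme and no other gene passed in it. Scaling also moved the balance of calls over all genes: 1749 were higher and 2453 lower in rescue than in isotonic with TMM, 2050 and 1095 with library totals, and 2091 and 1404 with upper quartiles. Against hypertonic the split was 1796 and 2508 with TMM, 2109 and 1098 with library totals, and 2137 and 1448 with upper quartiles.

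Compared per kb of gene span, the enzymes changed order. In isotonic the mean level was highest for QPRT (1.36 CPM per kb), followed by AFMID (1.09), HAAO (0.0865), KMO (0.0231), TDO2 (0.0132), KYNU (0.00162) and IDO1 (0.000786, also in CPM per kb). In rescue it was highest for AFMID (1.41 CPM per kb), then QPRT (0.840), KYNU (0.323), KMO (0.107), IDO1 (0.105), TDO2 (0.0785) and HAAO (0.0320). KYNU thus stood at place 3 in rescue and at place 6 in isotonic and in hypertonic. Neighbours in these orders overlapped between libraries for KMO and IDO1 in rescue, and for KMO and TDO2 in hypertonic and in isotonic. Per kb of merged exons the order was the same in hypertonic and isotonic, and in rescue only TDO2 and IDO1 changed places.

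Fewer genes had no count in rescue, with 690 and 699, against 1248 and 1653 in hypertonic and 1627 and 1270 in isotonic. The summed level of 381 olfactory receptor genes, which are silent in most tissues outside the nose, was 114 and 123 CPM in rescue, 39.8 and 56.6 CPM in hypertonic, and 59.6 and 40.2 CPM in isotonic. In rescue 1 and 2, KYNU lay above 96.1% and 96.3% of these receptor genes per kb of span, KMO above 89.5% and 86.9%, IDO1 above 89.0% and 88.2%, and TDO2 above 82.2% and 85.0%. Outside rescue KYNU lay above 62.2% to 73.5% and IDO1 above 0% to 66.9%. KMO lay above 81.1% to 89.2% there and TDO2 above 68.5% to 87.1%, so both overlapped with rescue. HAAO lay above 72.2% and 70.3% in rescue, and above 90.8% to 96.3% elsewhere. Per kb of merged exons KMO, IDO1 and TDO2 each lay above at least 97.4% of them in both rescue libraries. The part of these differences in the values of the enzymes was not tested.

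**Figure D3:**
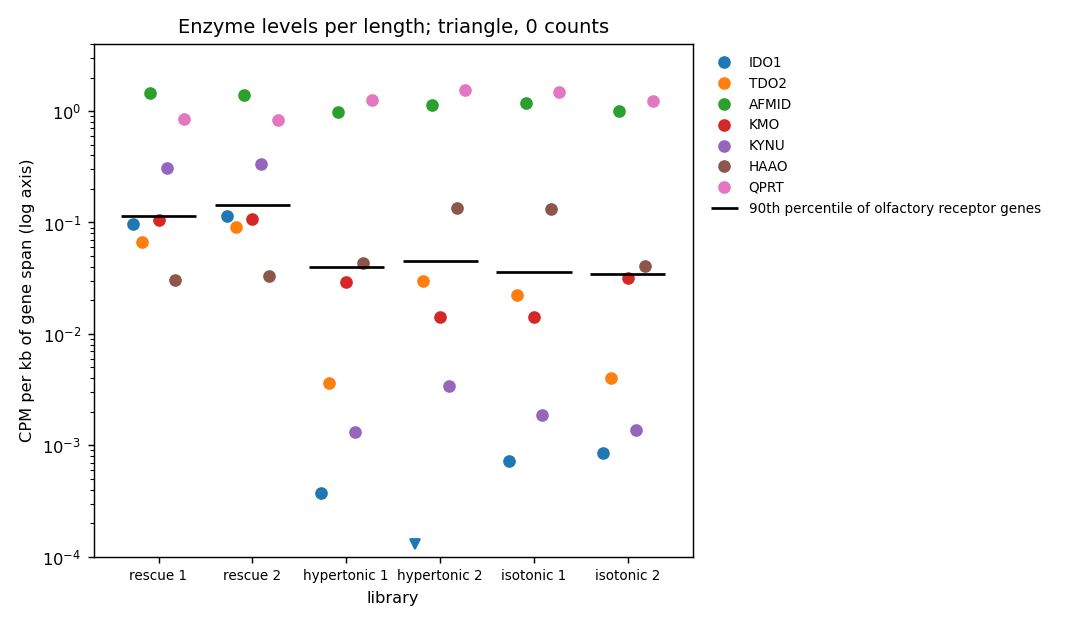
CPM per kb of gene span (vertical axis, log scale) of the 7 enzymes in each library, with the 90th percentile of 381 olfactory receptor genes as a black line; the triangle marks IDO1 at 0 counts in hypertonic 2. In rescue KYNU is above the line, and IDO1, TDO2 and KMO are below it.

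Markers of cell types in which the pathway is well known were examined beside the enzymes. The 12 macrophage markers summed to 41.5 and 40.3 CPM in rescue, 21.7 and 14.6 CPM in hypertonic, and 14.0 and 24.0 CPM in isotonic. CD68 was at 10.7 and 10.6 CPM in rescue, 4.76 and 6.46 CPM in hypertonic, and 6.39 and 5.29 CPM in isotonic. CSF1R and ITGAM were the next highest. The macrophage markers that follow are named here after their values were seen. Of the 18208 genes tested, 46.9% had both rescue libraries above the 4 others. Levels of PTPRC were 2.54 and 2.175 CPM in rescue, with at most 0.998 CPM in any other library. For SPI1 they were 2.62 and 2.39 CPM, against at most 0.503 CPM. AIF1 was also highest in both rescue libraries, with 0.425 and 0.25 CPM (45 and 23 counts), against at most 0.057 CPM. CD163, a scavenger receptor, stood at 6.74 and 6.51 CPM in rescue and at 0.133 CPM or lower elsewhere, while CD14 and MRC1 were highest in hypertonic 1 and isotonic 2. CD14 was at 0.387 and 0.261 CPM in rescue, 2.002 and 0.05795 CPM in hypertonic, and 0.07595 and 1.752 CPM in isotonic. MRC1 was at 1.18 and 1.67 CPM in rescue, 3.12 and 0.367 CPM in hypertonic, and 0.237 and 3.38 CPM in isotonic. TYROBP had at most 0.0189 CPM and LYZ at most 0.0944 CPM in any library. The 10 hepatocyte markers summed to 125 and 116 CPM in rescue, 72.3 and 112.8 CPM in hypertonic, and 112.8 and 77.1 CPM in isotonic, nearly all of it SERPINA1 (69.9 to 114 CPM), followed by HPD (5.12 and 5.19 CPM in rescue), while ALB did not exceed 0.391 CPM. The 9 epithelial and keratinocyte markers summed to 488 and 464 CPM in rescue, 568 and 367 CPM in hypertonic, and 372 and 562 CPM in isotonic, led by KRT18, KRT8 and KRT10. The 5 endothelial markers summed to 45.0 and 43.4 CPM in rescue, 29.9 and 9.01 CPM in hypertonic, and 9.36 and 30.4 CPM in isotonic, led by PECAM1, TEK and VWF. None of the listed markers was at 0 counts in every library, and 4 of 12 macrophage and 6 of 10 hepatocyte markers stayed below 1 CPM in all 6. The part of these markers in the levels of the enzymes was not tested.

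The comparison of hypertonic with isotonic follows the labels, and it was not used to choose these genes. The libraries did not group by these labels, so a lack of calls does not show that the osmotic change left the genes unchanged. IDO1, with 1 and 0 counts in hypertonic and 2 and 2 in isotonic, had too few counts to be compared. None of the other 6 passed, with an adjusted p of 1 for each in the edgeR quasi-likelihood test and 0 at an unadjusted p under 0.05. Across all genes, 0% passed in this comparison, with 52 genes at an unadjusted p under 0.05; DESeq2 called 1 gene, none of the enzymes, and limma voom called 0. The log2 fold change of hypertonic over isotonic was 0.54 (SE 0.441) for KYNU, -0.09 (SE 0.619) for KMO and 0.35 (SE 1.18) for TDO2. It was -0.04 (SE 0.131) for AFMID, 0.06 (SE 0.741) for HAAO and 0.06 (SE 0.142) for QPRT. No enzyme had both hypertonic libraries above both isotonic ones, which 2.59% of genes had, and IDO1, at 0 to 2 counts, had both below, which 3.05% of genes had.

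For the 6 enzymes other than IDO1 these values average opposite shifts in number 1 and number 2. In number 1, TDO2 was 0.162 times and HAAO 0.328 times as high in hypertonic as in isotonic, and KMO was 2.05-fold higher. In number 2, TDO2 was 7.41-fold and HAAO 3.33-fold higher in hypertonic, and KMO was 0.443 times as high. With the libraries of number 2 left out of hypertonic and isotonic, 3 of 7 passed the edgeR test, with KMO higher and TDO2 and HAAO lower, where 64.2% of all genes passed. With those of number 1 left out, 4 of 7 passed, with KYNU, TDO2 and HAAO higher and KMO lower, where 63.9% of all genes did. These fits took the spread from the rescue libraries alone. AFMID, HAAO, KYNU, QPRT and TDO2 were higher in hypertonic 2 and isotonic 1 than in hypertonic 1 and isotonic 2, a pattern that 53.1% of genes had, and KMO had the opposite one, as did 35.0% of genes.

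Around the 7 enzymes, 61 genes of connected functions were measured and 56 were tested. Between rescue and isotonic 6 were higher and 6 lower (edgeR quasi-likelihood test over all genes), where 9.61% of all genes were higher and 13.5% lower. Their median log2 fold change was 0.36, against -0.02 for all genes. Between rescue and hypertonic 7 were higher and 6 lower, where 9.86% of all genes were higher and 13.8% lower. Between hypertonic and isotonic none of the 56 passed, by edgeR, DESeq2 or limma voom, with 0 at an unadjusted p under 0.05 in edgeR. With any 1 rescue or isotonic library left out, 0 of the 56 passed between rescue and isotonic, and with any 1 rescue or hypertonic library left out, 0 passed between rescue and hypertonic. With library totals in place of TMM, 6 were higher and 3 lower against isotonic.

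In the side branches, 2 of 6 genes passed as lower in rescue than in isotonic and none as higher. Of all genes, 13.5% were lower and 9.61% higher. GOT2, a mitochondrial aminotransferase that can turn kynurenine into kynurenic acid, was at 79.1 and 74.3 CPM in rescue, 123.2 and 137 CPM in hypertonic, and 137 and 122 CPM in isotonic, with a log2 fold change against isotonic of -1.05 (SE 0.0963; edgeR quasi-likelihood test, adjusted p = 0.00923). AADAT, another aminotransferase of this step, was at 11.9 and 12.6 CPM in rescue, 18.5 and 19.7 CPM in hypertonic, and 18.7 and 18.5 CPM in isotonic (adjusted p = 0.0206 in the edgeR test). IDO2, a paralog of IDO1 named here after its values were seen, did not pass, at 3.07 and 2.96 CPM in rescue, 0.355 and 0.0386 CPM in hypertonic, and 0.114 and 0.299 CPM in isotonic.

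Of 10 tested genes of NAD synthesis and salvage, 2 were higher and 1 lower in rescue than in isotonic. Among all genes, 9.61% were higher and 13.5% lower. The folds below are from the edgeR model with TMM scaling, while the CPM are by library total. NMNAT2, an adenylyltransferase that completes NAD, was at 12.02 and 14.1 CPM in rescue, 2.57 and 1.58 CPM in hypertonic, and 1.41 and 2.66 CPM in isotonic, 5.14-fold higher against isotonic (edgeR, adjusted p = 0.0388). The mitochondrial NAD kinase NADK2 was at 117 and 122.5 CPM in rescue, 28.96 and 46.5 CPM in hypertonic, and 46.4 and 28.6 CPM in isotonic, 2.63-fold higher (edgeR, adjusted p = 0.0317). The cytosolic kinase NADK was at 17.5 and 17.6 CPM in rescue, 22.0 and 29.03 CPM in hypertonic, and 30.1 and 22.5 CPM in isotonic, 1.83-fold lower (edgeR, adjusted p = 0.0316). NAMPT, the salvage enzyme, did not pass and differed within hypertonic and within isotonic, with 83.6 and 79.4 CPM in rescue, 158 and 59.3 CPM in hypertonic, and 58.4 and 164 CPM in isotonic. NNMT, which methylates nicotinamide, was at 282 and 281 CPM in rescue, 97.3 and 225 CPM in hypertonic, and 220.0 and 97.4 CPM in isotonic.

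Tryptophan enters cells mainly through a transporter of 2 chains, which moved in opposite directions. SLC7A5, the transport chain, was at 259 and 251 CPM in rescue, 366 and 336 CPM in hypertonic, and 341 and 348 CPM in isotonic, a log2 fold change against isotonic of -0.73 (SE 0.137; edgeR, adjusted p = 0.0274). Its partner SLC3A2 was at 278 and 268 CPM in rescue, 151 and 139.9 CPM in hypertonic, and 142 and 147 CPM in isotonic, a log2 fold change of 0.62 (SE 0.138; edgeR, adjusted p = 0.0398). The other 5 transporters tested did not pass, and over all genes 9.61% were higher and 13.5% lower in rescue than in isotonic.

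Among 8 genes of other uses of tryptophan, 1 passed as lower in rescue than in isotonic and none as higher. Over all genes 13.5% passed as lower and 9.61% as higher. IL4I1, an amino acid oxidase, was at 122 and 118 CPM in rescue, 128 and 158 CPM in hypertonic, and 157 and 124 CPM in isotonic. With TMM scaling its log2 fold change against isotonic was -0.52 (SE 0.122, edgeR adjusted p = 0.0439). These CPM are by library total, on which the median gene had a log2 fold change of 0.27. The tryptophan hydroxylase TPH1 was at 6.75 and 7.08 CPM in rescue, 0.444 and 1.024 CPM in hypertonic, and 1.48 and 0.543 CPM in isotonic, which passed against hypertonic (edgeR, adjusted p = 0.0365) but not against isotonic (edgeR, adjusted p = 0.0513). WARS, which charges tryptophan onto its tRNA, did not pass, at 50.9 and 47.7 CPM in rescue, 47.0 and 59.8 CPM in hypertonic, and 62.4 and 48.4 CPM in isotonic. Of 3 genes that supply vitamin B6, the cofactor of KYNU, the kinase PDXK was lower, at 140.4 and 137 CPM in rescue, 214 and 248 CPM in hypertonic, and 249 and 206 CPM in isotonic (edgeR, adjusted p = 0.00948). PDXP, a phosphatase of the same list, did not pass.

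Kynurenine is a ligand of the receptor AHR, and none of 7 tested genes of the list of AHR and its targets passed in any comparison. Over all genes 23.1% passed between rescue and isotonic and 23.6% between rescue and hypertonic. NQO1, the detoxifying reductase, was at 57.0 and 52.0 CPM in rescue, 58.3 and 53.5 CPM in hypertonic, and 53.4 and 56.0 CPM in isotonic. ARNT, the partner of AHR, was at 61.0 and 62.0 CPM in rescue, 27.4 and 61.7 CPM in hypertonic, and 61.8 and 25.9 CPM in isotonic. AHR itself and CYP1A1, a target, are named here after their values were seen, and neither passed. AHR was at 66.0 and 72.2 CPM in rescue, 35.8 and 16.4 CPM in hypertonic, and 17.25 and 43.1 CPM in isotonic (edgeR, adjusted p = 0.393 against isotonic). CYP1A1 was at 1.019 and 0.739 CPM in rescue, 0.256 and 0.425 CPM in hypertonic, and 0.418 and 0.1885 CPM in isotonic (edgeR, adjusted p = 0.161 against isotonic). The count of 0 for this list is by edgeR at the adjusted threshold, and between rescue and isotonic and between rescue and hypertonic 0 of the 7 had an unadjusted p under 0.05.

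Of 15 tested genes of the interferon gamma response, 3 passed as higher in rescue than in isotonic and none as lower. The shares over all genes were 9.61% higher and 13.5% lower. Folds of the genes below are from the edgeR model with TMM scaling, while their CPM are by library total. SOCS1, a feedback inhibitor of cytokine signals, was at 15.03 and 16.1 CPM in rescue, 2.01 and 3.93 CPM in hypertonic, and 4.11 and 2.10 CPM in isotonic, 4.15-fold higher against isotonic (edgeR, adjusted p = 0.0366). The guanylate-binding protein gene GBP2 was at 7.97 and 8.44 CPM in rescue, 2.22 and 2.34 CPM in hypertonic, and 1.83 and 2.17 CPM in isotonic, 3.32-fold higher (edgeR, adjusted p = 0.0154). IRF1, a transcription factor of the response, was at 38.4 and 36.9 CPM in rescue, 10.1 and 12.8 CPM in hypertonic, and 13.4 and 9.03 CPM in isotonic, 2.76-fold higher (edgeR, adjusted p = 0.0152). JAK1, a kinase of the receptor, did not pass, at 155 and 152 CPM in rescue, 149.6 and 159 CPM in hypertonic, and 164 and 144 CPM in isotonic. CXCL9, CXCL10 and IFNG itself had too few counts to be tested.

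**Figure D4:**
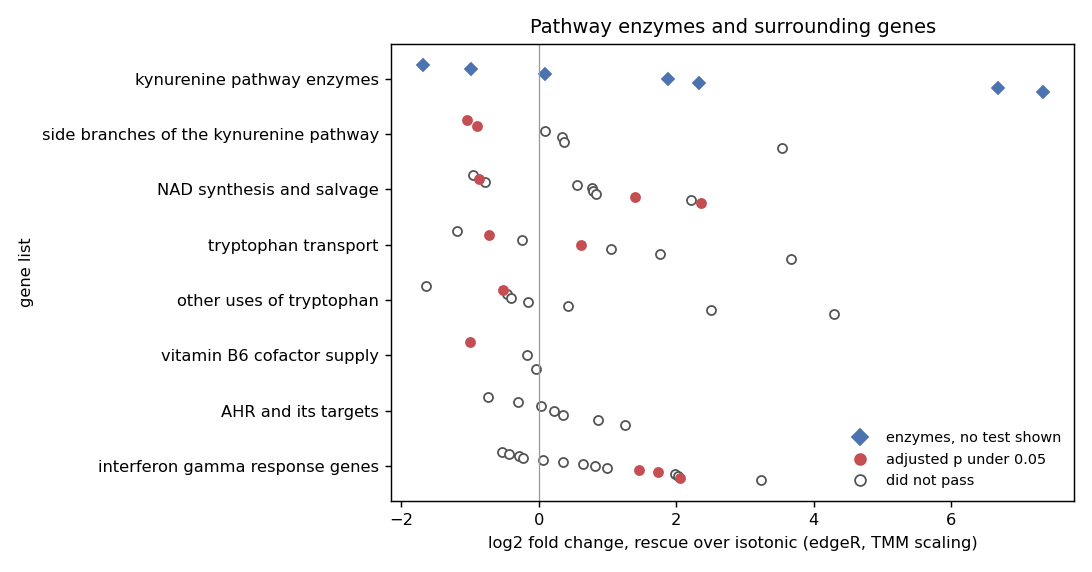
Log2 fold change of rescue over isotonic (horizontal axis, edgeR with TMM scaling) for the 7 enzymes (blue diamonds, no test shown) and the tested genes of 7 lists of connected function; red points passed at an adjusted p of 0.05 and open ones did not. KYNU and IDO1 lie far to the right of all other points, and red points of the lists lie on both sides of 0.

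By profile, the genes closest to KYNU across the 6 libraries were SLC16A6, CYP4F2, MS4A4A, TXNIP, SERPINB11, MUC19, SERPINB3 and ATP6V0D2. Likeness was the Euclidean distance between log2(CPM + 0.1) profiles, each centred on its own mean, among 13116 genes that averaged 5 CPM or more. SLC16A6, a monocarboxylate carrier gene, had a distance of 0.933, with 62.7 and 59.2 CPM in rescue, 0.414 and 0.869 CPM in hypertonic, and 0.854 and 0.288 CPM in isotonic. TXNIP, an arrestin-like regulator of glucose uptake, had a distance of 1.68, with 425 and 408 CPM in rescue, 4.93 and 12.3 CPM in hypertonic, and 11.7 and 4.83 CPM in isotonic. The choice by likeness to KYNU fixes that all 8 were lower outside rescue. With a pseudocount of 1, only SLC16A6, TXNIP and ATP6V0D2 were still among the 8 closest.

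**Figure D5:**
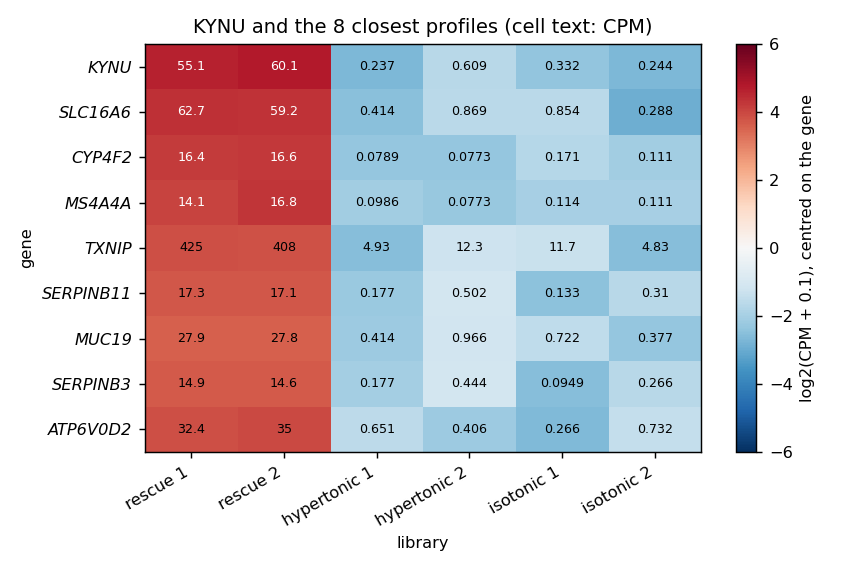
KYNU and the 8 genes with the closest profile (rows) in the 6 libraries (columns); colour gives log2(CPM + 0.1) centred on each gene and the text in each cell its CPM. All 9 genes are red in both rescue libraries and blue in the 4 others.

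The 3 neighbours of KYNU on chromosome 2 within 1000 kb were also higher in rescue, by less. Each had both rescue libraries above the 4 others, as did 46.9% of all genes tested. Of all genes, 9.61% were called higher in rescue than in isotonic. ARHGAP15, which starts 35.5 kb downstream, was at 7.59 and 7.81 CPM in rescue, 1.05 and 1.60 CPM in hypertonic, and 1.73 and 0.776 CPM in isotonic, a log2 fold change against isotonic of 2.35 (SE 0.437; edgeR, adjusted p = 0.0277). LRP1B, a lipoprotein receptor-like gene 746 kb upstream, was at 40.4 and 42.6 CPM in rescue, 10.2 and 6.59 CPM in hypertonic, and 7.16 and 11.2 CPM in isotonic (edgeR, adjusted p = 0.0390). GTDC1, at 882 kb downstream, was at 115 and 131 CPM in rescue, 31.5 and 43.2 CPM in hypertonic, and 45.7 and 32.4 CPM in isotonic (edgeR, adjusted p = 0.0159). The counts of these 3 rows do not overlap with the span of KYNU, whose only overlap in GENCODE 29 was a processed pseudogene on the opposite strand, AC013444.2. The part of the wider region in the level of KYNU was not tested.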

How the data were processed

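Total RNA of 6 libraries was depleted of ribosomal RNA and sequenced, per the labels' protocols. For each library the authors deposited 1 table of whole-number counts per gene, not normalized. Per the submitters' processing notes, bcl2fastq, TopHat2, Bowtie2 and bedtools were used on GRCh38; no source used here gives versions, annotation or strand handling. Each table held 19940 rows, and 33 names on more than 1 row were kept apart and not named. All 19907 names matched protein-coding genes of GENCODE 29, the source of coordinates, spans and exon lengths, and RefSeq gave the promoter windows.

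CPM are counts scaled to the library total. One edgeR 4.0.16 quasi-likelihood model (R 4.3.3) with a mean per group held all 6 libraries, after filterByExpr and TMM scaling, with Benjamini-Hochberg adjustment over 18208 genes and a two-sided threshold of 0.05. The SE is the log2 fold change divided by the root of F. Alternatives used DESeq2 1.42.0, limma 3.58.1, other scalings and filters, and fewer libraries. The steps were tested on simulated data. The enzymes and gene lists were chosen with earlier results of these data known. Named genes were the enzymes, up to 3 called genes per list that averaged 1 CPM or more (else the 2 highest), the 3 highest markers per list, the 8 closest profiles, and genes within 1000 kb of KYNU or overlapping an enzyme; a few that this rule names are not reported here.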

Additional observations from a re-analysis of the deposited data

How the results depend on the processing

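Over the 21 other settings, each run where it applied, no enzyme changed direction between rescue and isotonic or between rescue and hypertonic. Outside rescue, depth limits IDO1 (0 to 2 counts), KYNU (22 to 63) and TDO2 (24 to 204). With the replicate block, 0 genes, 0 enzymes and 0 other pathway genes were called in each of the 3 comparisons. The numbers share no stated source, and deviations of same-numbered libraries correlated at -0.0254 (rescue, isotonic), 0.0379 (rescue, hypertonic) and -0.905 (hypertonic, isotonic) over 18208 genes. With crossed pairs as a block, which was added once the data had been seen, 21 genes were called between hypertonic and isotonic, and 0 enzymes. With 1 library left out, 0 to 3460 genes, 0 to 3 enzymes and 0 to 12 other pathway genes were called between rescue and isotonic, and 0 to 3691, 0 to 3 and 0 to 11 between rescue and hypertonic.

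DESeq2 called 7027 of 19597 genes and 22 of 61 other pathway genes between rescue and isotonic. Between rescue and hypertonic it called 7102 of 19597 genes and 21 of 61 other pathway genes. Between hypertonic and isotonic it called 1 gene. With number 1 of hypertonic and isotonic alone, 14591, 15027 and 11841 genes were called in the order of these comparisons, with 6, 6 and 3 enzymes and 47, 50 and 43 other pathway genes. With number 2 alone, 14898, 14586 and 11776 genes, 6, 6 and 4 enzymes and 49, 48 and 41 other pathway genes were called. Of hypertonic over isotonic, log2 values that turned sign with number 1 alone were -0.33 (KYNU), 1.19 (KMO), -2.46 (TDO2), -1.45 (HAAO) and -0.0803 (QPRT), and with number 2 alone 0.0257 (AFMID). With 1 library left out they spanned -0.20 to 1.013 (KYNU), -0.80 to 0.71 (KMO), -1.74 to 1.93 (TDO2), -0.0763 to 0.0086 (AFMID), -0.88 to 1.03 (HAAO) and -0.0223 to 0.14 (QPRT). The cause of these changes was not tested. Between rescue and isotonic KMO also passed by DESeq2, as did 7027 of 19597 genes. QPRT did not pass with library totals, where 3145 of 18208 genes did. The choice of the enzymes bears on these calls too, so they are no result.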
